A study of Mus musculus with 12 samples.

Results

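The miR-30 family was represented on the arrays by 5 mature mouse miRNAs, mmu-miR-30a, mmu-miR-30b, mmu-miR-30c, mmu-miR-30d and mmu-miR-30e, which were taken by name from the 650 miRNAs of the array design. All 5 had at least 1 probe bright enough to be among the 175 miRNAs tested. Total RNA of C57BL/6 mouse embryonic fibroblasts (MEFs) was hybridised to 12 single-colour arrays. The 6 groups, of 2 arrays each, were ATF6aKO cells untreated, ATF6aKO cells given 2 ug/mL tunicamycin for 12 h or for 24 h, ATF6aWT cells untreated, and ATF6aWT cells given the same dose for 12 h or for 24 h. KO cells lacked ATF6a, a transcription factor held in the endoplasmic reticulum membrane and released by cleavage when unfolded proteins accumulate, and tunicamycin blocks N-linked glycosylation and so causes such accumulation. The labels describe the replicates as independent experiments and do not say from how many embryos or clones each genotype was derived. Because the arrays measure miRNAs only, the loss of ATF6a in the KO cells was not checked at its own transcript.

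A mature miRNA guides the Argonaute complex to messenger RNAs, mostly through pairing of its seed, the bases near its 5′ end, and members of a family share that seed. The miR-30 family is expressed in many tissues and is known for repressing regulators of cell proliferation, of the epithelial-mesenchymal transition and of matrix production in fibroblasts. In studies of the unfolded protein response, the strand opposite miR-30c in the Mir30c-2 hairpin, named miR-30c-2* on the array, has been described in mouse fibroblasts as a repressor of Xbp1, the transcription factor activated by the endoplasmic reticulum sensor Ire1. In human cells, miR-30d has been described as a repressor of the chaperone GRP78.

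The mature sequences of the guide strands of miR-30a, miR-30c and miR-30e are shown because they show the seed that the members share and the bases at which they differ. They are from RefSeq (mouse build GRCm38.p6), written 5′ to 3′, with bases 2 to 8, the seed, in capitals.
mmu-miR-30a-5p: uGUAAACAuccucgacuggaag
mmu-miR-30c-5p: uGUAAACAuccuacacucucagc
mmu-miR-30e-5p: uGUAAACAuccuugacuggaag
The 3 sequences were identical over their first 12 bases, and how far the probes of 1 member also bind another was not examined. Counted from the 5′ end, miR-30a and miR-30e differed by the single substitution C13U. miR-30a and miR-30c differed at 5 of the 22 positions compared, namely C13A, G14C, G18C, G19U and A20C. In that build miR-30a lies at chr1:23272274-23272295 on the plus strand, and miR-30e at chr4:120772660-120772681 on the minus strand within the span of Nfyc, which encodes a subunit of the transcription factor NF-Y. miR-30c is encoded at chr1:23291714-23291736 on the plus strand and at chr4:120769584-120769606 on the minus strand. The array therefore measured for miR-30c the product of both loci, 1 near Mir30a and 1 near Mir30e and likewise within the span of Nfyc. Mir30b and Mir30d lie together on chromosome 15.

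Each level below is the log2 of the processed spot signal divided by that array's 75th percentile over 87 probes detected on all arrays, with a floor at -5.02, and it is averaged over the probes of a miRNA. Probes bind with different strengths, so levels were compared between groups for 1 member and never between members. The 4 untreated arrays were on slide 1 and the 8 treated ones on slide 2, so that treatment and slide cannot be told apart, and genotype likewise cannot be told apart from the row of the slide. Replicate 2 of every treated group was scanned in run 4, where the lowest level well above background was -3.67 to -2.87, against -5.65 to -4.75 on the other arrays. In run 4, 2 or 3 of the members were well above background, against 4 or 5 elsewhere. Replicates differed with an SD, taken across all tested miRNAs, of 0.715 to 1.19 in the treated groups, against 0.206 in untreated KO and 0.204 in untreated WT cells. Among miRNA markers of fibroblasts and mesenchyme, 4 of 7 were well above background on all 12 arrays (miR-199a-3p, miR-199a-5p, miR-214 and miR-21) and miR-145 on none. None of 7 epithelial, 6 blood, 2 endothelial, 3 nervous system and 1 liver markers was well above background on any array, and at most 1 muscle and 1 pluripotent cell marker was on any array.

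miR-30a, read by 3 probes, was well above background on all 12 arrays. In KO cells its level was -2.87 and -2.78 untreated, -2.66 and -3.22 after 12 h, and -2.47 and -2.84 after 24 h of tunicamycin. In WT cells it was -2.32 and -2.31 untreated, -2.79 and -2.70 after 12 h, and -2.53 and -2.63 after 24 h. The untreated WT arrays were the highest of the 12 and stood apart from the next group, WT at 24 h. All other neighbours in the order of group means overlapped, and the means spanned 0.62 log2 units.

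miR-30b had 1 usable probe, which was at the floor on 3 arrays. In KO cells its level was -4.02 and -3.99 untreated, -4.57 and -4.30 after 12 h, and -4.17 and the floor after 24 h. In WT cells it was -4.64 and -4.50 untreated, the floor and -4.48 after 12 h, and -4.58 and the floor after 24 h. Untreated KO cells had the highest level, apart from every other group. The remaining 5 groups overlapped with their neighbours, and the group means spanned 0.79 log2 units. miR-30b was not well above background on either WT array at 12 h, and no bound on a fold change could be set there, because the faintest signals still detected there, averaged over both arrays, were above the level of the group compared. The -4.30 of KO cells at 12 h was also not well above background.

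miR-30c, well above background on all 12 arrays, had 2 usable probes. In KO cells its level was -3.90 and -3.86 untreated, -3.99 and -3.65 after 12 h, and -3.80 and -3.93 after 24 h. In WT cells it was -4.07 and -4.09 untreated, -3.99 and -3.86 after 12 h, and -3.81 and -3.75 after 24 h. Here the untreated WT arrays were the lowest of the 12, below WT cells at 12 h without overlap, and the other 5 groups overlapped with their neighbours in the order. The means spanned 0.29 log2 units, a range lowered by 1 of the 2 probes, which was at the floor on 11 arrays.

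miR-30d, with 2 usable probes, was at -2.78 and -2.89 in untreated KO cells, at -2.85 and -3.61 after 12 h and at -2.63 and -2.96 after 24 h. In WT cells it was at -2.84 and -3.01 untreated, at -3.42 and -3.32 after 12 h and at -3.21 and -3.24 after 24 h. Both treated WT groups lay below untreated WT cells, all other neighbours in the order overlapped, and the means spanned 0.58 log2 units. In KO cells the low value at 12 h came from replicate 2, which was not well above background. In WT cells replicate 2 at 24 h was not well above background either.

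miR-30e had 1 usable probe. In KO cells its level was -3.40 and -3.32 untreated, -3.47 and -4.20 after 12 h, and -3.15 and -3.53 after 24 h. In WT cells it was -3.14 and -3.17 untreated, -3.83 and -3.86 after 12 h, and -3.38 and -3.39 after 24 h. In the order of group means, WT cells at 24 h stood apart from the next group, KO cells at 12 h, all other neighbours overlapped, and the means spanned 0.70 log2 units. Both genotypes had their lowest group mean at 12 h, and replicate 2 of every treated group was not well above background for this member.

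**Figure D1:**
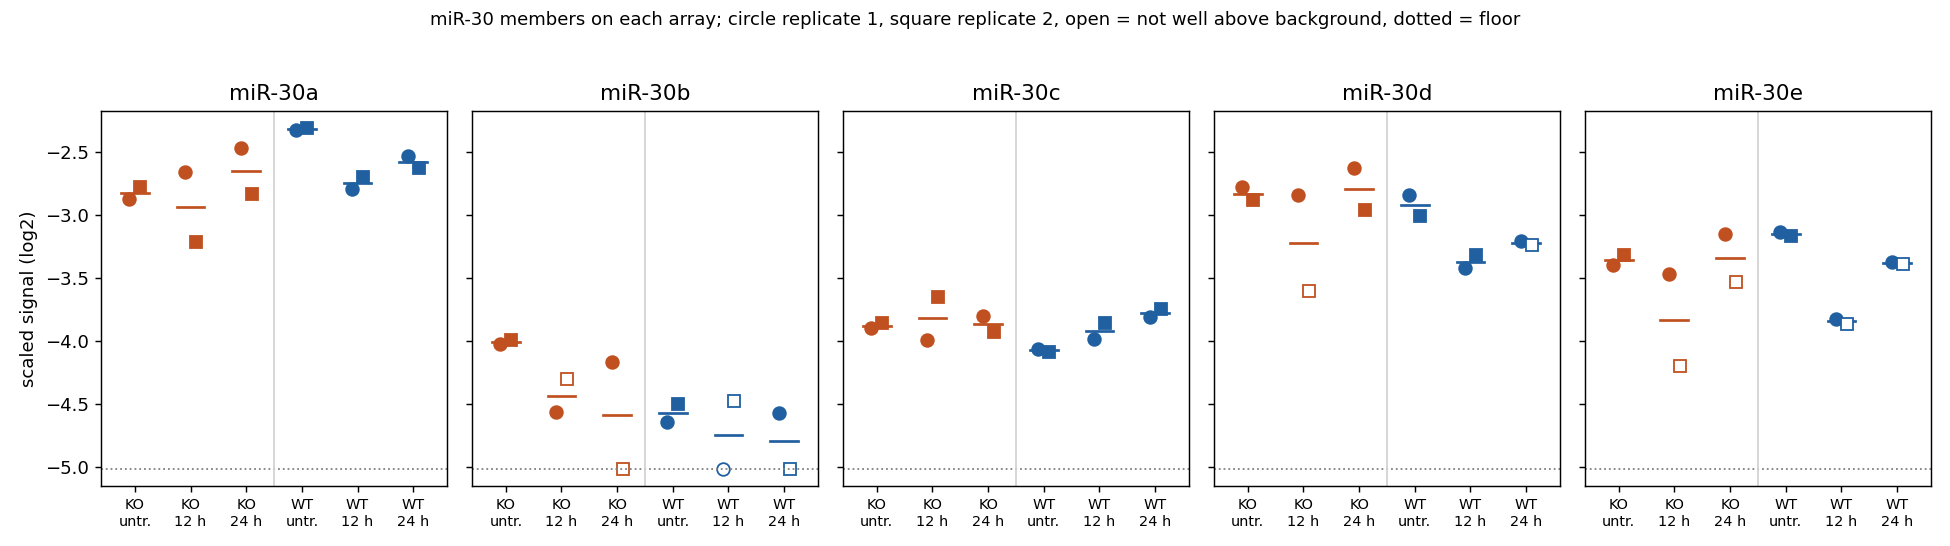
Level of each miR-30 member (log2 of the scaled signal, vertical axis) on each of the 12 arrays by group, KO in orange and WT in blue, with circles for replicate 1, squares for replicate 2 and a bar for the mean; open symbols were not well above background and the dotted line is the floor. miR-30a is highest and miR-30c lowest in untreated WT cells, and miR-30e is lowest at 12 h in both genotypes.

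In KO cells none of the 5 members passed the threshold, an adjusted p of 0.05, after 12 h of tunicamycin, beside 17.1% of the 175 miRNAs tested, and none at an unadjusted p under 0.05. The groups did not overlap for 2 members, miR-30b and miR-30e, beside 52.6% of all tested. miR-30e was at -3.47 and -4.20 in treated cells, against -3.40 and -3.32 in untreated cells, a log2 difference of -0.48 ± 0.22 (SE, n = 2 arrays per group; limma, adjusted p = 0.212). This SE, like the others given, uses a spread pooled over all 6 groups. The replicates of miR-30e had an SD of 0.52 in KO cells at 12 h and 0.06 in untreated KO cells. Its treated replicate 2 was the lowest of the 12 arrays, and replicate 1 was close to the untreated ones. miR-30b differed by -0.43 ± 0.30 and miR-30d by -0.39 ± 0.23, while miR-30a (-0.11 ± 0.19) and miR-30c (0.06 ± 0.12) were nearer 0. The median was -0.39 over the members and -0.09 over all miRNAs tested. The values of miR-30d and miR-30e rest on replicate 2 of the treated group, where neither was well above background. miR-30b was not well above background on that array either. The lowest level well above background on that array was -2.94. Without replicate 1, which leaves that array alone in its group, the differences were -0.77 for miR-30d and -0.84 for miR-30e.

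At 24 h in KO cells none of the members passed, beside 10.3% of all miRNAs tested, and none at an unadjusted p under 0.05. Only for miR-30b did the groups not overlap, beside 57.7% of all tested. miR-30b was at -4.17 and the floor in treated cells, against -4.02 and -3.99 in untreated cells, a difference of -0.58 ± 0.30 (limma, adjusted p = 0.289). The other 4 lay between 0.01 and 0.17, and the median was 0.02 over the members and 0.00 over all tested. The 95% interval for miR-30e was -0.51 to 0.55.

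In WT cells, miR-30e was lower after 12 h of tunicamycin. Its level was -3.83 and -3.86 in treated cells, against -3.14 and -3.17 in untreated cells, without overlap. The log2 difference was -0.70 ± 0.22 (SE, n = 2 arrays per group; limma, adjusted p = 0.0389), a ratio of 0.617, with treated replicate 2 not well above background. It was the only one of the 5 members past the threshold, beside 44.6% of the 175 miRNAs tested, of which 67 fell and 11 rose. The 2 groups of arrays did not overlap for 4 of the members, beside 74.3% of all tested. miR-30a (-0.43 ± 0.19, adjusted p = 0.106) and miR-30d (-0.45 ± 0.23, adjusted p = 0.166) had negative differences without overlap, and miR-30c a positive one (0.15 ± 0.12, adjusted p = 0.337). The median was -0.43 over the members and -0.27 over all miRNAs tested. The miR-30e call was lost when arrays were scaled on all probes (adjusted p = 0.675), after quantile normalization (0.399) and after normexp background correction (0.896), with a negative difference under each. Those settings called 0, 15 and 1 of the 175 miRNAs, against 78 in the main fit, so most calls on other miRNAs were lost too. Among fits without 1 array, it was lost without either untreated WT array (0.146 and 0.119), either WT array at 12 h (0.108 and 0.12), either at 24 h (0.0616 each) or either untreated KO array (0.068 each), and held without any of the treated KO arrays.

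After 24 h in WT cells, none of the 5 members passed, beside 41.1% of all miRNAs tested, and 1 of them, miR-30c, had an unadjusted p under 0.05. For 4 members the groups did not overlap, beside 70.9% of all tested. miR-30c was at -3.81 and -3.75 in treated cells, against -4.07 and -4.09 in untreated cells, a difference of 0.29 ± 0.12 (limma, adjusted p = 0.0826). The other 4 differences lay between -0.30 and -0.23, and the median over the members was -0.23, against -0.21 over all miRNAs tested. miR-30e, called at 12 h, was -0.23 ± 0.22 at 24 h, with a 95% interval of -0.76 to 0.29.

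**Figure D2:**
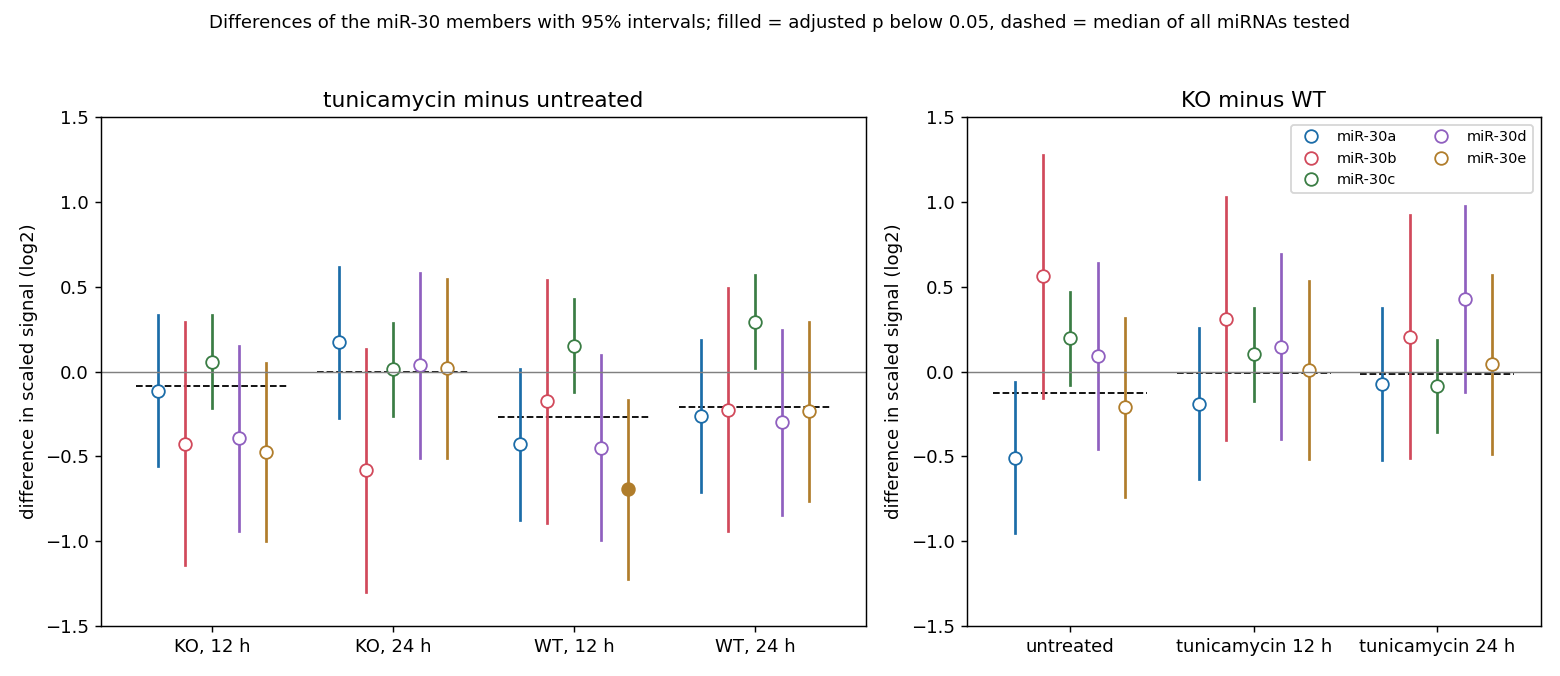
Difference of each miR-30 member (log2, vertical axis) with its 95% interval, for tunicamycin minus untreated in KO and WT cells on the left and for KO minus WT on the right; filled points passed the adjusted threshold and dashed lines are the median of all 175 miRNAs tested. Only miR-30e at 12 h in WT cells is filled, and most intervals include 0.

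The difference for miR-30c in WT cells depended on its probes. Probe A_54_P1270 was at the floor on 11 of the arrays, which leaves its part of the difference at 0, and probe A_54_P3752 was well above background on all 12. The processed signal of A_54_P3752 at 24 h was 62.3 and 31.5 in treated WT cells, against 43.0 and 46.8 in untreated WT cells, and its scaled level was -2.61 and -2.49 against -3.12 and -3.16. With the brightest probe of each miRNA, treated KO cells differed from untreated ones by 0.02 ± 0.12 at 24 h (limma, adjusted p = 0.97) and by -0.17 ± 0.12 at 12 h (adjusted p = 0.383). With the same probe treated WT cells differed from untreated ones by 0.59 ± 0.12 at 24 h (adjusted p = 0.00849), a call, and by 0.31 ± 0.12 at 12 h (adjusted p = 0.0816). The difference of the 24 h responses, KO minus WT, was -0.56 ± 0.17 by this probe (adjusted p = 0.0954), which did not pass. A floor at 0.25 times the value used made the 2-probe difference at 24 h in WT cells negative, at -0.32 (adjusted p = 0.537).

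The 3 probes of miR-30a gave unequal differences. At 12 h in WT cells they were -0.12 for A_54_P2260, -0.30 for A_54_P2261 and -0.86 for A_54_P4363. The brightest, A_54_P4363, alone gave -0.86 ± 0.21 (limma, adjusted p = 0.0129), with processed signals of 123 and 111 in treated WT cells, against 194 and 190 in untreated WT cells. On WT replicate 1 at 12 h this probe was not well above background. Over the 33 comparisons of members with more than 1 usable probe, the probes of a member had opposite signs in 12.

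**Figure D3:**
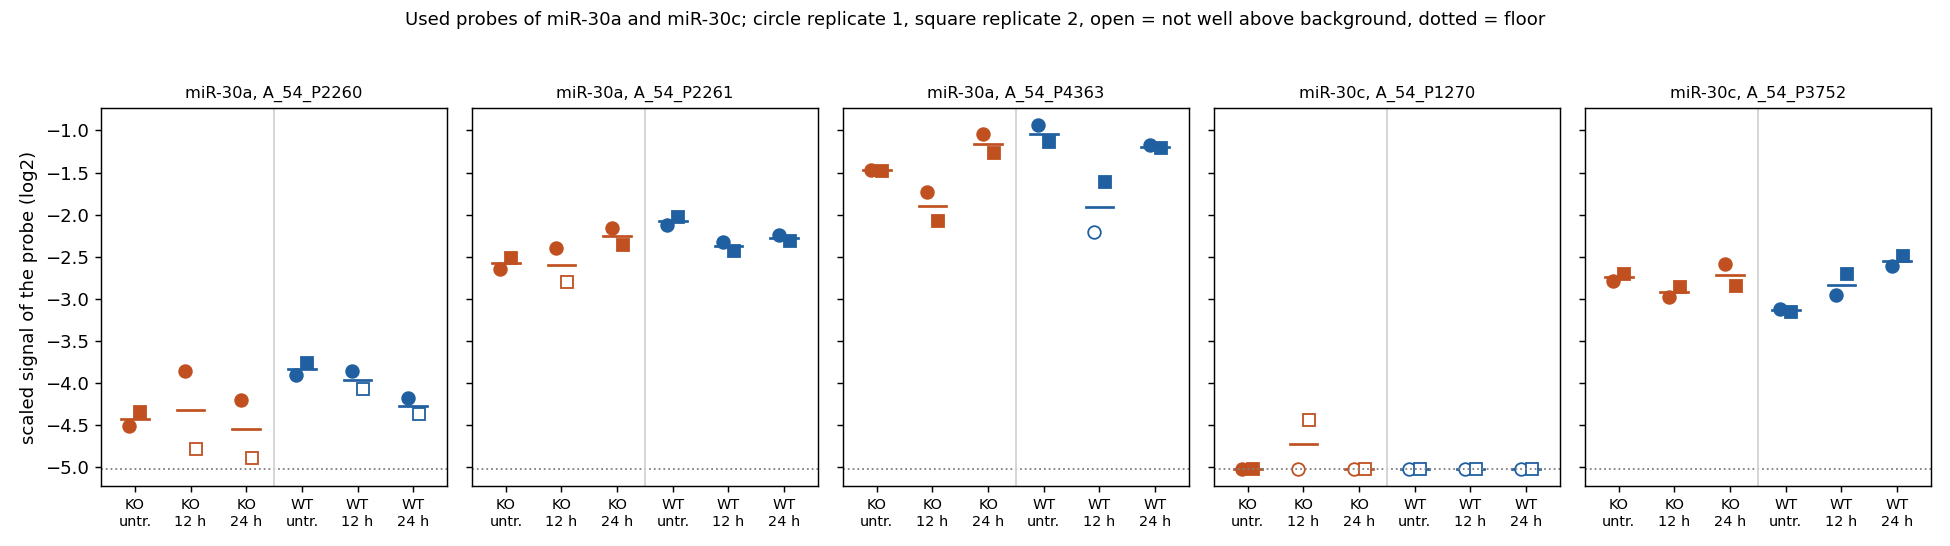
Level of each usable probe of miR-30a and miR-30c (log2 of the scaled signal, vertical axis) on each array by group, KO in orange and WT in blue, with circles for replicate 1, squares for replicate 2 and a bar for the mean; open symbols were not well above background and the dotted line is the floor. Probe A_54_P1270 of miR-30c lies at the floor on 11 arrays, while A_54_P3752 is at its lowest in untreated WT cells.

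Between the treated times, no member passed in KO cells, beside 2.29% of all miRNAs tested, nor in WT cells, beside 1.14%, and none had an unadjusted p under 0.05 in either. The arrays of all 5 members overlapped in KO cells, where those of 20% of all tested did not, and in WT cells they did not overlap for 4 members, beside 41.7%. miR-30e in KO cells was at -3.15 and -3.53 at 24 h, against -3.47 and -4.20 at 12 h, a difference of 0.49 ± 0.22 (limma, adjusted p = 0.488). In WT cells it was at -3.38 and -3.39 at 24 h, against -3.83 and -3.86 at 12 h, a difference of 0.46 ± 0.22 (adjusted p = 0.437). The median over the members was 0.28 in KO cells and 0.15 in WT cells, against 0.02 in KO cells and 0.00 in WT cells over all miRNAs tested. Without KO replicate 1 at 12 h, the difference in KO cells was 0.57 for miR-30a, 0.81 for miR-30d and 0.86 for miR-30e. That fit leaves only replicate 2 in the group, where miR-30d and miR-30e were not well above background.

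Untreated KO and WT cells were compared within 1 slide. None of the 5 members passed, beside 28% of all miRNAs tested, and miR-30a alone had an unadjusted p under 0.05. miR-30a was at -2.87 and -2.78 in KO cells, against -2.32 and -2.31 in WT cells, a difference of -0.51 ± 0.19 (limma, adjusted p = 0.0956). Within scanning runs 1 and 2 the difference was -0.55 and -0.47. All 3 probes of miR-30a were lower in KO cells after scaling, at -0.59, -0.50 and -0.43. Before scaling, their sum was 146 and 120 in KO cells, against 126 and 140 in WT cells. The 75th percentiles used for scaling were 630 and 467 on those KO arrays, against 373 and 418 on the WT ones. Over 26 alternatives the miR-30a difference lay between -0.56 and -0.01. It was -0.06 with scaling on all probes, -0.27 after quantile normalization and -0.44 after normexp background correction. miR-30b was at -4.02 and -3.99 in KO cells, against -4.64 and -4.50 in WT cells, a difference of 0.56 ± 0.30 (adjusted p = 0.246) that was 0.62 and 0.51 within the runs. Its processed signal was 38.7 and 29.3 in KO cells, against 14.9 and 18.5 in WT cells. miR-30c differed by 0.20 ± 0.12 (adjusted p = 0.299), and by 0.39 ± 0.12 with its brightest probe (adjusted p = 0.0499). The groups did not overlap for miR-30a, miR-30b, miR-30c or miR-30e, 4 of 5 beside 69.7% of all tested, and miR-30d (0.09 ± 0.23) overlapped. The median was 0.09 over the members and -0.13 over all tested. The standard errors pool the spread of the treated arrays. When only the 4 untreated arrays were fitted, 4 members passed, miR-30a lower (adjusted p = 0.00538), miR-30b (0.00844) and miR-30c (0.0148) higher and miR-30e lower (0.03), beside 95 of the 175 miRNAs.

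Under tunicamycin no member separated the genotypes at the threshold, beside 7.43% of all miRNAs tested at 12 h and 9.71% at 24 h, and none at an unadjusted p under 0.05. The groups overlapped for all members at 12 h, where they did not for 26.3% of all tested, and for all but miR-30d at 24 h, beside 44.6%. miR-30a, at -0.51 between untreated cells, differed by -0.19 ± 0.19 at 12 h and by -0.07 ± 0.19 at 24 h. The largest of the 24 h differences was that of miR-30d, at -2.63 and -2.96 in KO cells, against -3.21 and -3.24 in WT cells, or 0.43 ± 0.23 (limma, adjusted p = 0.373). The -3.24 was not well above background, on an array where the lowest level well above background was -2.87. At 12 h the scanning runs gave opposite signs for all members but miR-30b. miR-30e was 0.36 in run 3 and -0.34 in run 4, miR-30d 0.58 and -0.28, miR-30a 0.14 and -0.52, and miR-30c -0.01 and 0.21. miR-30b was 0.45 and 0.18. At 24 h the runs also gave opposite signs for miR-30a (0.06 and -0.21), miR-30c (0.01 and -0.18) and miR-30e (0.22 and -0.14). For miR-30d they gave 0.58 and 0.28 at 24 h, and for miR-30b 0.41 and 0, with both run 4 arrays at the floor. The median over the members was 0.10 at 12 h and 0.04 at 24 h, against -0.01 and -0.02 over all miRNAs tested.

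Whether the response to tunicamycin depended on ATF6a was tested as the difference of the responses, KO minus WT. None of the 5 members passed at 12 h, beside 9.71% of the miRNAs tested, nor at 24 h, beside 13.1%, and none at an unadjusted p under 0.05. For miR-30e at 12 h the difference was 0.22 ± 0.32, with a 95% interval of -0.53 to 0.97, so the call in WT cells and its absence in KO cells do not show a difference between the genotypes. For miR-30a it was 0.32 ± 0.27 at 12 h and 0.43 ± 0.27 at 24 h (adjusted p by limma 0.579 and 0.366). The 95% intervals of the members reached from -1.37 to 1.11 over both times. With the 4 arrays of run 4 left out, miR-30a (0.64) and miR-30e (0.57) passed at 12 h, and miR-30a (0.57) and miR-30e (0.43) at 24 h, with 70 of the 175 miRNAs at 12 h and 82 at 24 h. In that fit each treated group had 1 array, assumed to vary like the untreated ones.

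The opposite strands of the miR-30 hairpins, starred in the array's names, were well above background on few arrays. The strands below are shown because they fall into 2 seed groups, and the last of them is the strand described as a repressor of Xbp1. Bases 2 to 8 are in capitals, from RefSeq GRCm38.p6.
mmu-miR-30a-3p: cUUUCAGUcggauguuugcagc
mmu-miR-30e-3p: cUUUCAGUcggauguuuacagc
mmu-miR-30c-1-3p: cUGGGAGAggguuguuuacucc
mmu-miR-30c-2-3p: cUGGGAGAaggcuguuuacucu
miR-30c-2* was not well above background on any of the 12 arrays, with processed signals of at most 11.6 over its 2 probes, and neither was miR-30c-1*, with at most 11.6 over its 4 probes. miR-30e* had a probe well above background on 2 untreated arrays. miR-30b* was well above background on WT replicate 2 at 12 h only, with all 4 probes and a mean processed signal of 51.0, against at most 7.28 on any other array. miR-30a* was tested through 1 probe and had no call in any comparison. Its level was at the floor in all KO groups and in WT cells at 12 h, so comparisons among those groups could give no call. Its processed signal, before scaling, was 13.7 and 12.9 in untreated KO cells, against 14.6 and 14.7 in untreated WT cells. The 75th percentiles used for scaling were 630 and 467 on those KO arrays, against 373 and 418 on the WT ones. miR-384-5p, the other array miRNA with the seed GUAAACA among the RefSeq entries, was on no array well above background, with a processed signal of at most 1.53.

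The members did not move as a block across the arrays. Over the 12 arrays Pearson's r was 0.82 between miR-30d and miR-30e, 0.82 between miR-30a and miR-30e, and -0.60 between miR-30a and miR-30c. Those arrays share their groups, slides and scanning runs, and the values are a description only. The level of miR-30c includes probe A_54_P1270, which was off the floor only on KO replicate 2 at 12 h. On that array miR-30c was at its highest (-3.65) and miR-30a at its lowest (-3.22). miR-30a and miR-30c, the members well above background on all arrays, were averaged to find the miRNAs with the most similar pattern. The 75 candidates had no probe at the floor, a condition that miR-30c itself did not meet. The most similar were miR-26b (r = 0.78), miR-22 (0.74), miR-377 (0.67), miR-379 (0.65) and miR-140 (0.64), over 12 arrays. Since miR-30a and miR-30c had r = -0.60 with each other, these 5 follow the mean and are not shown to resemble either member.

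As a frame for the family, 27 miRNAs linked in the literature to the unfolded protein response were followed, 17 of which were tested. In KO cells 0 rose and 5 fell at 12 h, and 0 rose and 4 fell at 24 h, among them miR-322 (-1.15 ± 0.14 and -0.91 ± 0.14), miR-214 (-1.29 ± 0.19 and -1.41 ± 0.19) and miR-199a-5p (-1.35 ± 0.23 and -1.39 ± 0.23). In WT cells 1 rose and 5 fell at 12 h, and 3 rose and 6 fell at 24 h. miR-322 changed by -0.95 ± 0.14 at 12 h and by -1.04 ± 0.14 at 24 h (adjusted p by limma 0.00138 and 0.00103), miR-199a-5p by -1.26 ± 0.23 at 24 h, and miR-34a, a target of p53, by -0.88 ± 0.10 at 12 h. miR-20a, of the miR-17 family, rose by 1.00 ± 0.21 at 24 h. The median of the list was -0.41 at 12 h and -0.04 at 24 h in KO cells, and -0.17 at 12 h and -0.05 at 24 h in WT cells. Over all miRNAs tested the medians were -0.09 and 0.00 in KO cells and -0.27 and -0.21 in WT cells, and the shares called 17.1% and 10.3% in KO cells and 44.6% and 41.1% in WT cells. Between the genotypes, KO against WT, 1 was higher and 2 lower untreated, 1 higher and 2 lower at 12 h, and 0 higher and 2 lower at 24 h. The shares called of all miRNAs tested were 28%, 7.43% and 9.71%. Both miR-322 (-0.85, -1.05 and -0.71) and miR-96 (-0.69, -0.87 and -1.03) were lower each time. In each difference of responses 1 list member passed, miR-222, whose probes were at the floor on 6 of the 8 arrays. Of all miRNAs tested, 9.71% passed there at 12 h and 13.1% at 24 h.

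The scanner software also gives a summed signal per miRNA, and the deposited series table holds its log2. For the members this value often held more than their own probes. Of the 55 values detected for the 5 members, 26 equalled, within 0.5%, the sum of the member's own detected probes plus the summed signal of the detected miRNA before it in name order. For miR-30b this held for all 8 detected values, for miR-30c for 9 of 12 and for miR-30e for 5 of 11. For WT replicate 1 at 12 h, miR-30b was listed at 135, of which 10.8 came from its own probe and 124 was the value of miR-30a. On the same array miR-30c was listed at 185, of which 50.3 was its own and 135 that of miR-30b, and miR-30e at 100.1, of which 27.4 was its own and 72.7 that of miR-30d. Both untreated WT values of miR-30e were its own, at 34.6 and 39.7. The miR-30e difference at 12 h in WT cells was therefore 1.04 in the deposited table and 0.61 from scaled summed signals, opposite in sign to the -0.70 from its probe. It was -1.25 when only its own detected probes were summed (limma, adjusted p = 0.278). That sum held 2 probes on each untreated WT array and 1 on each WT array at 12 h, so it compares unlike numbers of probes. Over all miRNAs, 31.4% of 2034 detected values held the preceding miRNA. The levels, differences and calls given above for the members were computed from the spots and contain none of this addition.

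**Figure D4:**
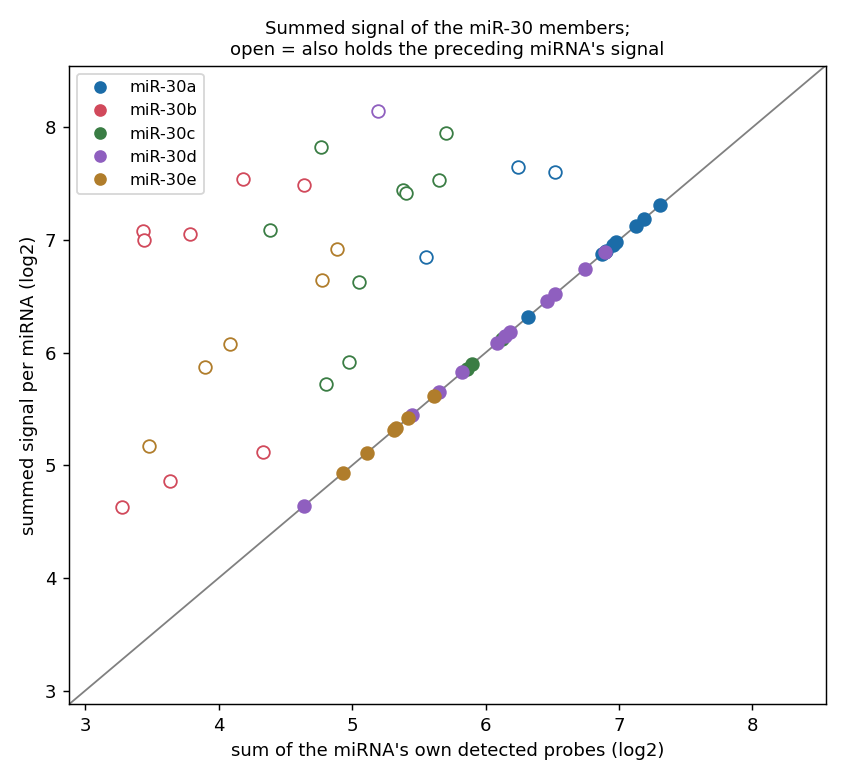
Summed signal per miRNA as listed by the scanner software (log2, vertical axis) against the sum of the miRNA's own detected probes (log2, horizontal axis) for the 55 detected values of the miR-30 members, with the line of equality; open points also hold the signal of the preceding miRNA. All 26 open points lie above the line, among them all 8 of miR-30b.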

How the data were processed

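Total RNA was labelled with Cy3, per the labels' protocols, and the sample labels gave groups and replicate numbers. The authors deposited each array's spot intensities as linear, background-subtracted processed signals, not scaled to other arrays, per the file headers. The submitters' processing notes name Agilent Feature Extraction 10.7.1.1. The authors also deposited a table of log2 values, which were log2 of the software's summed signal. The genome build used for the array is not given in the sources used here.

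Control and outlier spots were left out (0 to 9 of 100 member spots per array were outliers) and spots of a probe were averaged. Each array's signals were scaled to the 75th percentile of 87 probes that were detected on every array, floored at 0.0309 and log2 transformed. A miRNA's level was the mean over its probes that passed the background flag in both replicates of some group: 306 of 1857 probes, 9 of 11 for the members, 175 miRNAs. limma 3.58.1 in R 4.3.3 (lmFit, eBayes) was fitted to 6 group means, and p-values were adjusted by Benjamini-Hochberg over the 175 miRNAs, separately for each of 11 comparisons, with a threshold of 0.05. The number of arrays limits the precision. The members, the lists and the tests were chosen with earlier results of these data known. Named miRNAs were all members, their opposite strands, array miRNAs with their seed, the 5 most correlated miRNAs and called miRNAs of the unfolded protein response list, up to 4 by p. Markers of other cell types were counted where well above background. miR-30c-5p, miR-30a-5p and miR-30e-5p matched RefSeq entries, 3 of the 5 members.

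Same-numbered arrays deviated together within a slide (r = 0.74 for the untreated pair, 0.82 to 0.94 for treated pairs), where the file headers give them a shared scanning run, and oppositely across slides (-0.66 to -0.45), so the numbers pair arrays only within a slide. On simulated data with 175 miRNAs the fit for 12 h of tunicamycin in WT cells recovered 33.2% of the changes made at 0.5 log2 units, 72.6% at 1 and 88.4% at 2, and 1.2 calls on average were false. Alternatives covered scaling, background correction, summary, filter, floor, probe choice, blocks, the arrays fitted and each array left out. normexp used the median spot signal.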

Additional observations from a re-analysis of the deposited data

Results flagged for a closer look

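miR-30b*, the opposite strand of miR-30b, was not among the miRNAs tested because no group had it well above background on both arrays. On replicate 2 of WT cells after 12 h of tunicamycin its 4 probes, all well above background there, had a mean processed signal of 51.0, and single probes lay between 36.8 and 64.2. No probe of miR-30b* was well above background on any other array, where the mean over the 4 probes was at most 7.28, and at most 3.93 on the untreated arrays. Replicate 1 of the same group had a mean of 3.07. The array belongs to scanning run 4, and 5 miRNAs were well above background on it alone.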

How the results depend on the processing

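Each result was recomputed under up to 28 alternatives. Of 1461 recomputed differences of single members, 1233 kept their direction and their side of the threshold, or moved by less than the replicate spread, 165 moved, 47 newly passed, 14 no longer passed and 2 changed sign against a call. The 14 were all miR-30e at 12 h in WT cells, which passed in 11 of 27 alternatives. The 2 sign changes were also of miR-30e there, at 0.61 with the summed signal and at 1.04 in the deposited table; the addition of the preceding miRNA's signal is in both. For 12 h in WT cells the count of members past the threshold was 1 (78 of 175 miRNAs called). It was 0 with scaling on all probes (0 of 175 called), quantile normalization (15), normexp (1), the summed signal (17) and the summed signal without the addition (36). It was also 0 with the deposited table (0 of 153), no filter on dim probes (49 of 650) and a floor at 0.25 times the value (61 of 175). It was 2 with a floor at 2 times the value (56 of 175 miRNAs called) or the brightest probe (76), 3 with only the groups compared (79) and 4 without run 4 (110). With only probes well above background on every array, miR-30c alone had a value, and the count of 0 there says nothing of miR-30e. For 24 h in WT cells the count was 1 with only probes well above background on every array (21 of 57 miRNAs called), a floor at 2 times (56 of 175) or the brightest probe (66), 3 with only the groups compared (91) and 2 without run 4 (97), against 0. For untreated KO against WT it was 1 with a floor at 2 times (38 of 175 called) or the brightest probe (49), and 4 with only the groups compared or without run 4 (95 each), against 0. Without run 4 it was 1 for 12 h (66 of 175 called) and 1 for 24 h (52) in KO cells, 1 for 24 h against 12 h in WT cells (23), 2 for KO against WT at 12 h (53) and 2 for each difference of responses (70 and 82), against 0 each. Leaving out each array in turn gave 0 to 2 at 12 h in KO cells, 0 to 3 at 12 h and 0 to 1 at 24 h in WT cells, 0 to 3 for 24 h against 12 h in KO cells, 0 to 1 for untreated KO against WT, and 0 throughout for the others. Leaving out either KO array at 12 h, the pair with the widest replicate difference, gave the 3 at 12 h in WT cells, with 94 of 175 miRNAs called.

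The replicate block and the scanning run as a block left all 55 member results on their side of the threshold, with the count for 12 h in WT cells at 1, and so did the crossed pairing of treated and untreated replicates for its 20 results, with 1 call at 12 h in WT cells. The crossed pairing, the summed signal without the addition and the fit without run 4 were chosen after the data were seen. The median of all miRNAs at 12 h in WT cells was -0.50 when scaled on all probes, -0.55 with quantile normalization and -0.10 with the normexp background correction, against -0.27. Causes were not tested beyond what a setting changes by construction. Signals near the floor limit miR-30b and the dim probe of miR-30c, and 2 arrays per group limit all members.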
